A study of Mus musculus with 13 samples.

Results

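Cells of the mouse colon that carry UMI (counts of single RNA molecules) of crypt stem cell genes and few UMI of cell cycle genes were described in single-cell RNA sequencing of sorted colon epithelium. The cells were chosen by their own counts: at least 500 genes detected, under 30 per 10000 UMI over the mucus genes Muc2, Fcgbp and Zg16, under 5 UMI over 7 G2 and mitosis genes (Mki67, Top2a, Cenpf, Cdk1, Birc5, Ccnb1, Ube2c), under 4 UMI over 5 S phase genes (Pcna, Mcm5, Mcm6, Tyms, Rrm2), and 3 or more UMI over Lgr5, Ascl2, Smoc2, Axin2 and Nkd1. Of 4183 cells, 58 passed and are called members here. The working name for such cells, Lgr5 stem cells outside the cycle, fitted them only in part: 29 of the 58 held no Lgr5 UMI, and 14 passed on Axin2 UMI alone. They are therefore called by the rule, or by the genes that led them.

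Stem cells at the base of the colon crypt divide and supply the absorptive and secretory cells that move up to the surface. They depend on Wnt signals: Lgr5 is a receptor for R-spondins, which strengthen Wnt signalling, Ascl2 is a transcription factor of the stem cell state, and Smoc2 is a secreted matrix-associated protein. Axin2 and Nkd1 are feedback inhibitors that Wnt signalling induces, so they mark the signal and not only the stem cell. In GENCODE annotation of mm10, Lgr5 lies at chr10:115450311-115587780 (minus strand), Ascl2 at chr7:142966829-142969264 (minus), Smoc2 at chr17:14279506-14404790 (plus), Axin2 at chr11:108920349-108950783 (plus) and Nkd1 at chr8:88521354-88594884 (plus). All 5 are protein-coding genes.

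The cells came from whole colons of antibiotic-treated wild type C57BL/6J mice and of germ-free C57BL/6J mice. The labels name neither the antibiotics nor the ages nor the number of mice, and control mice were not analysed here. Cells of each condition were pooled, then EPCAM+ CD45- cells were sorted at 1:1 from the CD44+ and CD44- gates, so the sort sets every share of cells given here. Each condition was 1 pool with a labelled batch of its own: the effects of condition and batch cannot be told apart, and without replicate pools no significance test was made. All intervals are at the 95% level and cover counting error only.

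Cell names divide the antibiotic cells into cell sets 1, 2 and 3 (832, 1149 and 1434 cells) and the germ-free cells into cell sets 3 and 4 (306 and 462 cells). The antibiotic sets were not separate from each other. Sets 1 and 2 shared 315 cell barcodes, sets 1 and 3 shared 48, and sets 2 and 3 shared 501, while the germ-free sets shared none. Cells with the same barcode in sets 2 and 3 had a median Pearson correlation of 0.351 over genes, against -0.00106 for cells with different barcodes, and in 91.6% of the shared cells of set 2 the best match in set 3 was the same barcode. The deeper copy held a median 9.73 times the UMI of the shallower one. The match was weaker for sets 1 and 2 (median correlation 0.326, best match in 67.9%) and for sets 1 and 3 (0.0922 and 43.8%). In all, 837 antibiotic cells shared a barcode with a deeper cell of another set and were counted as its shallower copy. The 58 members have 58 different barcodes. Of these, 40 occurred in a single set, 14 were the deepest copy of a shared barcode and 4 were a shallower copy, so results are also given with only the deepest copy of each barcode (54 members).

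The members were 15, 10 and 27 cells in antibiotic sets 1, 2 and 3, and 1 and 5 cells in germ-free sets 3 and 4. As a share of all cells this was 1.80% (Clopper-Pearson interval 1.01 to 2.96), 0.87% (0.418 to 1.60), 1.88% (1.24 to 2.73), 0.327% (0.00827 to 1.81) and 1.08% (0.352 to 2.51). The 5 intervals overlap. Depth differed between the sets: the other cells outside the cycle, which passed all limits but that on stem genes, had a median of 7953, 7652 and 8140 UMI in the antibiotic sets but 1369 and 4567 in the germ-free sets. When each cell was thinned to 3000 UMI, which left out 1493 shallower cells, 5, 7 and 8 cells of the antibiotic sets and 1 and 1 of the germ-free sets passed, or 0.818% of the 2690 cells kept (0.513 to 1.24), against 1.86% of the same cells before thinning. Of the 50 members with at least 3000 UMI, 15 still passed and 35 fell below 3 stem UMI.

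Among the genes of the rule, Smoc2 was found in 37 members, Axin2 in 36, Lgr5 in 29, Ascl2 in 5 and Nkd1 in 3. Lgr5 and Smoc2 occurred together in 23 members. No member passed on Ascl2 or Nkd1 alone, 2 passed on Lgr5 alone and 4 on Smoc2 alone. The members held a median of 4 UMI over the 5 genes (range 3 to 23), and 23 of them lay on the limit with exactly 3. Just outside it lay 82 other cells with 2 stem UMI.

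The members were then divided by their UMI over Lgr5, Ascl2, Smoc2 and Nkd1, a division chosen after the values were seen. With 3 or more UMI over these 4 genes stood 32 cells, called Lgr5- and Smoc2-led here: 8, 7 and 13 in the antibiotic sets and 1 and 3 in the germ-free sets. A further 12 cells carried Axin2 with 1 or 2 UMI of the 4 genes, and 14 cells carried Axin2 alone. The kinds differed in depth. The Axin2-alone cells held a median of 31494 UMI (10469 to 75554), and the Lgr5- and Smoc2-led cells a median of 6311 (1315 to 17318). All 14 Axin2-alone cells were antibiotic cells, and they held 52.9% of the members' 932551 UMI, so sums over all members weigh them most. Among all cells below the cycle limits, members included, the share with an Axin2 UMI was 5.10% under 5000 UMI and 13.7% at 20000 UMI or more. The share with a UMI of the other 4 genes was 5.73% and 8.98%. Above 20000 UMI there were 11 Axin2-alone members and no Lgr5- and Smoc2-led member.

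**Figure D1:**
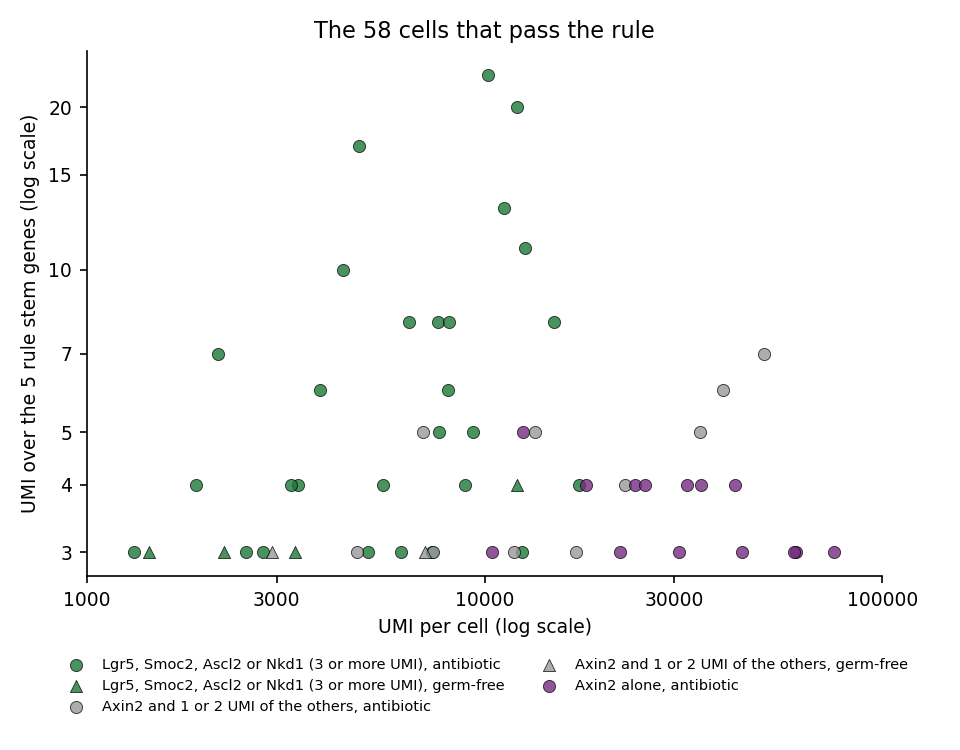
Each point is 1 of the 58 members, with its total UMI on the x axis and its UMI over Lgr5, Ascl2, Smoc2, Axin2 and Nkd1 on the y axis, both on log scales; colours give the 3 kinds and triangles the 6 germ-free cells. Axin2-alone cells have 10469 UMI or more and at most 5 stem UMI, while the cells with 8 or more stem UMI are all Lgr5- and Smoc2-led.

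Whether the stem genes occur in the same cells was read by choosing cells on 4 of the genes and measuring the fifth. Cells chosen without Lgr5 (42 cells, median 12282 UMI against 6514.5 in those not chosen) held 44 Lgr5 UMI, or 53.8 CPM (the count divided by the group's total UMI and scaled to a common total), against 4.05 CPM in the 2968 cells not chosen, a ratio of 13.3 (conditional binomial interval 9.18 to 18.95). Per antibiotic set the chosen cells held 114.5, 15.5 and 41.1 CPM of Lgr5 against 4.62, 4.13 and 3.11 CPM, and the 2 germ-free cells held none. In those 2 cells 3 counts alone would be 299.8 CPM. Lgr5 was thus higher in the chosen cells of all 3 antibiotic sets, though in set 2 on 2 UMI. The interval of the ratio in set 2 (0.438 to 14.6) includes equal levels. Smoc2 in the 37 cells chosen without it stood at 55.0 CPM against 5.96 (ratio 9.23, 6.47 to 12.9). Its antibiotic sets held 112, 24.8 and 40.7 CPM against 5.47, 7.07 and 4.47 CPM. The second of these rests on 3 UMI, and its ratio interval (0.704 to 10.8) includes equal levels. Axin2 in the 32 cells chosen without it stood at 109 CPM against 10.4 (ratio 10.5, 6.61 to 15.9). Its antibiotic sets held 266, 21.5 and 73.7 CPM, the second of these on 1 UMI with a ratio interval (0.0605 to 13.9) that includes equal levels. Its 4 germ-free cells chosen this way held no Axin2 UMI, where 3 counts would be 897 CPM in set 3 and 191 CPM in set 4. Ascl2 had 5 UMI in the 56 cells chosen without it (ratio 9.28, 2.68 to 26.2). Of these UMI, 4 lay in antibiotic set 3, 1 in set 1 and 0 in set 2, and 5.36% of the 56 cells held any. Nkd1 had 2 UMI, and its interval (0.279 to 9.70) includes equal levels. With the deepest copies alone the ratios were 13.4 for Lgr5, 11.0 for Ascl2, 9.58 for Smoc2, 10.6 for Axin2 and 2.48 for Nkd1.

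The limits on cycle genes are counts, and so they depend on depth. Over the 12 cycle genes of the rule, 18 members held no UMI, 21 held 1 or 2 and 19 held 3 to 6. Members were not lower in these genes than the other cells outside the cycle, at 121 CPM against 78.0 CPM. No cycle UMI was found in 31.0% of members and 55.4% of the other cells. The Lgr5- and Smoc2-led members stood at 236 CPM, those with Axin2 and 1 or 2 others at 82.2 and the Axin2-alone members at 87.2. The 52 cycling cells, which passed the limits on genes, mucus genes and stem UMI but failed a cycle limit, had a median of 16322 UMI against 9776.5 in the members. When those 52 cells were thinned to 3000 UMI, 7 of them passed as members. The 4 members that were shallower copies gave a comparison without thinning. All 4 were Lgr5- and Smoc2-led members of antibiotic set 3 and had 5545, 2769, 2509 and 1315 UMI. Their copies in antibiotic set 2 had 59292, 28296, 22116 and 12091 UMI. The set 3 copies held 2, 2, 0 and 0 S phase UMI, and the set 2 copies held 26, 10, 4 and 6. Every one of these 4 set 2 copies is among the 52 cycling cells. The same barcode was thus outside the cycle in its shallow copy and cycling in its deep copy.

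Members were next set beside the 2952 other cells outside the cycle. UMI were summed over cells and scaled to CPM, and the log2 ratio is that of CPM + 1, which understates the ratio of low genes. A gene was ranked with at least 100 UMI in both groups together and 20 CPM in the higher one, so a low gene entered only through the group where it was high. It was called with a difference of at least 2-fold and the same direction in every cell set with 20 or more cells of both groups, which only antibiotic set 3 had. Of 6973 genes ranked, 897 (12.9%) were called higher and 443 (6.35%) lower in members, and the median log2 ratio of all ranked genes was 0.28. With the same direction required in antibiotic sets 1, 2 and 3 (10 or more cells), 775 (11.1%) and 436 (6.25%) were called. Under median-of-ratios scaling, which removes that general shift, 411 genes were called higher and 653 lower. The deepest copies gave 905 and 437 calls, of which 1303 were among the 1340 calls of all cells. These groups differ by the rule itself, and all values that follow describe the chosen cells.

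Genes of the stem cell and crypt base state that the rule did not use were mostly higher. Of 20 listed, 17 were ranked, 13 were called higher and 1 lower, with a median log2 ratio of 1.83, and all these calls were kept when antibiotic sets 1, 2 and 3 had to agree. Slc12a2, the basolateral sodium, potassium and chloride cotransporter, was 6.45-fold higher (5.74 to 7.24). Members held 383, 201 and 395 CPM in antibiotic sets 1, 2 and 3 and 598 and 932 CPM in germ-free sets 3 and 4, each above the other cells of the same set, which held 43.0 to 238 CPM. Kcnq1, a potassium channel of the crypt base, was 4.28-fold higher (3.81 to 4.79), with 379, 194, 380, 897 and 1049 CPM in the same 5 sets against 78.1 to 119 CPM. Lrig1, which restrains EGF receptor signalling, was 3.30-fold higher (2.88 to 3.77), with 222, 314 and 263 CPM in the antibiotic sets, 0 in the single cell of germ-free set 3 and 389 CPM in set 4, against 70.2 to 104 CPM in the other cells. Ephb3, a receptor that positions cells in the crypt, was 15.4-fold higher (9.87 to 23.5) on 34 UMI, and its relative Ephb2 3.57-fold (2.97 to 4.26). The gene called lower was Prom1, which is also expressed by cells above the crypt base, 3.68-fold lower (2.85 to 4.82). Lgr4, the broadly expressed relative of Lgr5, missed the 2-fold limit at 1.48-fold higher (1.31 to 1.66).

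The Wnt pathway was read in 2 lists. Of 28 genes of Wnt receptors and of proteins that pass the signal on, 16 were ranked and 1 was called higher (Bcl9l, a coactivator of beta-catenin), with a median log2 ratio of 0.38. None was called when sets 1, 2 and 3 had to agree, against 11.1% called higher and 6.25% lower of all ranked genes. The most abundant were Csnk1a1 (519 CPM in members, 476 in other cells), Tcf7l2 (415 and 793 CPM), Lgr4 (330 and 224 CPM) and Ctnnb1, which encodes beta-catenin (200 and 286 CPM). Of 19 Wnt target and feedback genes 7 were ranked and 6 were called higher, with a median of 1.91. Rnf43 and Znrf3, enzymes that remove Wnt receptors and are themselves induced by Wnt, were 4.44-fold (3.79 to 5.17) and 2.93-fold (2.41 to 3.55) higher. Of the 6 called, Rnf43, Znrf3, Sox9, Ephb2 and Ephb3 also stand in the list of stem genes. Cd44, by which the cells were sorted, was 69.7 CPM in members and 51.9 CPM in other cells and was not called.

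In the Notch list, which concerns the choice between absorptive and secretory fate, 4 of 7 ranked genes were called higher: the receptors Notch1 and Notch2, the target Hes1 (2.45-fold, 2.17 to 2.76) and Olfm4. When sets 1, 2 and 3 had to agree, 3 were called. Of the BMP list, whose signals oppose the stem cell state, 2 of 14 ranked genes were called higher (Smad4 and the coreceptor Rgmb) and 1 lower (Bmp2), and the lower call was lost when the 3 sets had to agree. Id1, a BMP target, stood at 200 CPM in members and 154 CPM in other cells. Of 10 ranked EGF receptor genes, Lrig1 was called higher and the ligand Areg lower. The BMP and EGF receptor counts were near the shares over all ranked genes, 12.9% higher and 6.35% lower.

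Colonocyte genes were lower. Of 22, 21 were ranked, 17 were called lower and none higher, with a median log2 ratio of -1.79, and 15 were lower when sets 1, 2 and 3 had to agree. Car1, a carbonic anhydrase of colonocytes, stood at 349 CPM in members and 7257 CPM in other cells, 20.8-fold lower (18.7 to 23.3). Members held 609, 207 and 292 CPM in the antibiotic sets and 0 and 38.8 CPM in the germ-free sets, and the other cells 3839 to 7992 CPM in the 5 sets. Cyp2c55, Emp1 and Krt20 were lower by 3.30, 3.04 and 3.14 on the log2 scale. A single member, of the kind with Axin2 and 1 or 2 other UMI, held 448 of the members' 642 Guca2a UMI and stood at 60948 CPM over the colonocyte list, against a median of 2373 CPM over members and 10822 CPM over other cells. Without this cell the members summed to 4397 CPM over the list, against 6509 CPM with it and 23711 CPM in other cells, and 18 genes were called lower. The genes with the largest lower calls also included several that no member expressed detectably. Abca12, a lipid transporter, was at least 19.5-fold lower than its 62.9 CPM in other cells (floor of 3 counts over the members), and Grin3a at least 15.7-fold. The water channel Aqp8 and the peptide transporter Slc15a1 were at least 9.25-fold and 8.51-fold lower, and Defb37 and Trim15 at least 7.05-fold and 6.67-fold. Sprr1a, Ces1g and Ly6m had 1 UMI each in members, with ratios of other cells to members of 62.8 (11.2 to 2481), 33.6 (6.01 to 1327) and 24.2 (4.32 to 956). Sprr2a3 was 16.9-fold lower (8.88 to 36.9), and Slc10a2, the bile acid transporter, 14.9-fold (8.10 to 31.1).

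**Figure D2:**
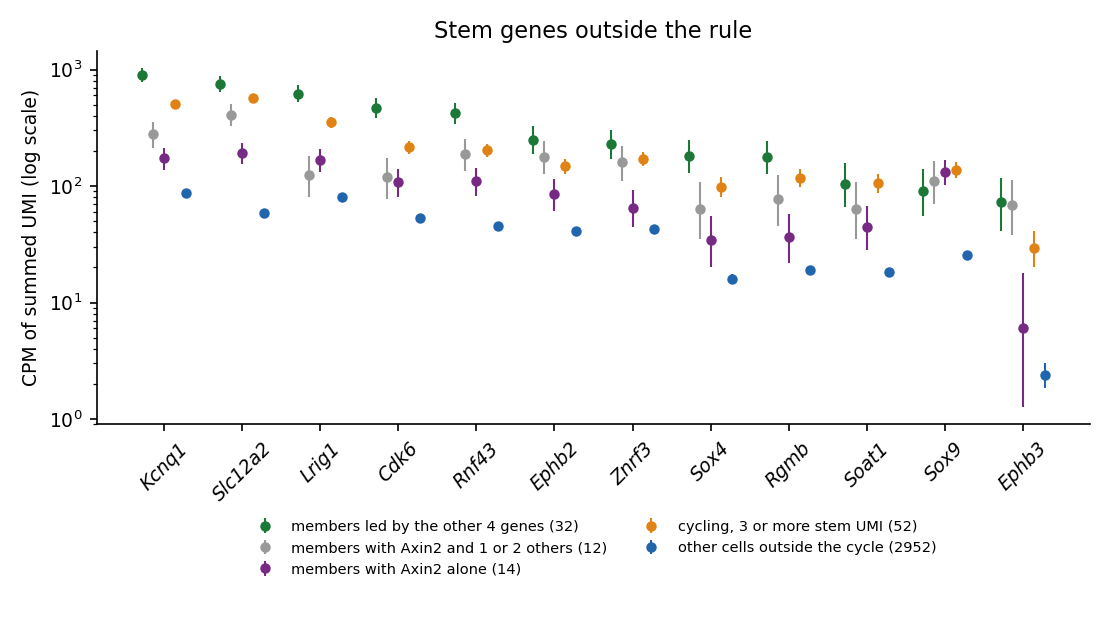
CPM of 12 stem genes that the rule did not use, on a log axis, in the 3 kinds of members, in cycling cells with 3 or more stem UMI and in other cells outside the cycle; bars are exact Poisson intervals of the summed UMI. For Kcnq1 the Lgr5- and Smoc2-led cells reach 902 CPM, the Axin2-alone cells 172 CPM and the other cells 86.5 CPM.

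**Figure D3:**
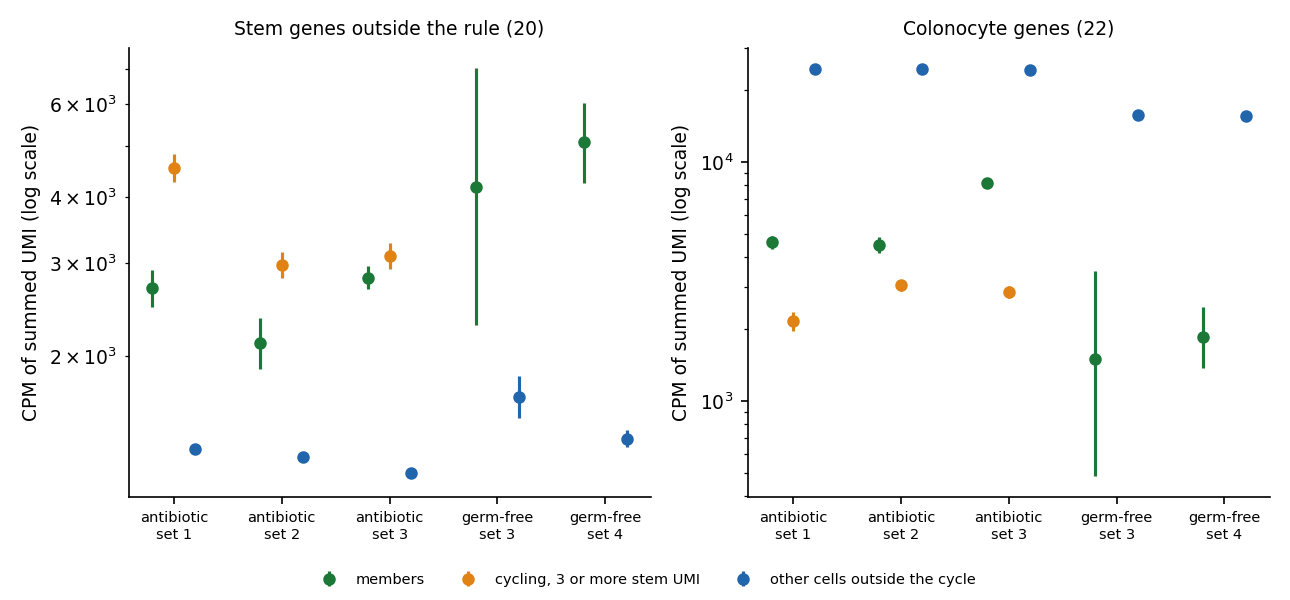
Summed CPM (log axes) of the 20 stem genes outside the rule (left) and of 22 colonocyte genes (right) in each cell set, with exact Poisson intervals; cycling cells of the germ-free sets (0 and 4 cells) are not drawn. The members lie above the other cells in the stem genes and below them in the colonocyte genes in all 5 sets.

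The genes at the top of the higher calls came largely from 1 cell. Among the 12 with the largest ratio were 6 defensin genes (Defa36, Defa24, Defa17, Defa22, Defa30) or defensin-related genes (AY761184) and Itln1, an intestinal lectin, beside Lgr5, Smoc2, Fut9, Axin2 and Ephb3. Alpha-defensins are the antimicrobial peptides of Paneth cells, which the small intestine has and the healthy colon largely lacks. A single member of antibiotic set 2 held 1855 of the members' 1906 Defa24 UMI and 201 of the 204 Itln1 UMI. Over all 22 Defa genes it held 2645 of its 11195 UMI, or 23.6%, together with 240 UMI of Spink4 and 62 UMI of Reg4, both genes of secretory crypt cells, 11 UMI of Lgr5 and 2 of Smoc2. Whether it is 1 cell or 2 in a droplet was not tested, since no doublet caller was run. Without it, Defa24 stood at 55.4 CPM in members against 30.6 CPM in other cells, and the log2 ratios of Defa17, Defa30 and AY761184 were 0.82, 0.73 and 0.52. Itln1 then changed sign, to -0.31. The log2 ratio of Defa36 fell from 6.93 to 1.82, at 4.34 CPM, and that of Defa22 from 5.26 to 2.43, at 10.9 CPM, both under the 20 CPM needed for ranking. The log2 ratios of Lgr5, Smoc2, Axin2, Fut9 and Ephb3 without this cell were 4.90, 4.36, 3.70, 3.77 and 3.40. Low defensin counts were widespread: 20 of the other 57 members and 945 of the 2952 other cells (32.01%) had a Defa UMI, at most 0.824% of any such member's UMI.

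Markers of non-epithelial cells were close to absent. Over 10 immune genes the members held no UMI, which allows up to 3.22 CPM, and the other cells held 1.48 CPM. Over 11 mesenchymal and endothelial genes members held 17 UMI (18.2 CPM, against 8.95 CPM in other cells), and 12 of the 17 were Pdgfrb. Over 10 tuft cell genes they held 19.3 CPM against 33.9 CPM, and over 12 enteroendocrine genes 24.7 CPM against 15.9 CPM, where 15 UMI were Pyy in 1 member. Epithelial genes were present throughout, with 1 or more UMI of Krt8 in 56 and of Epcam in 54 of the 58 members. Of the goblet and deep crypt secretory list, 2 of 10 ranked genes were called higher, Agr2 and Cd24a, against 12.9% of all ranked genes. The summed level was 1092 CPM in members and 616 CPM in other cells. Without the defensin cell the members stood at 686 CPM (634 to 742). The defensin cell alone stood at 34480 CPM over that list, against a median of 524 CPM over members. Mitochondrial genes took 10.5% of the members' UMI and 14.1% of the other cells', and Gm42418, AY036118 and Lars2, which can reflect ribosomal RNA, took 8.40% and 11.0%. With all these genes left out of the totals, 7616 genes were ranked, and 809 were called higher and 568 lower in members. Beyond this scaling, their part in the results was not tested.

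The kinds of members differed more among themselves than the sums show. Over the 20 stem genes outside the rule, the Lgr5- and Smoc2-led cells reached 5244 CPM (4946 to 5555), the cells with Axin2 and 1 or 2 others 2471 (2267 to 2688), the Axin2-alone cells 1741 (1626 to 1861) and the other cells outside the cycle 1271 (1258 to 1284). The led cells held 5327, 4451 and 5579 CPM in antibiotic sets 1, 2 and 3 and 4187 and 5467 CPM in germ-free sets 3 and 4. The lowest of these sets was above the highest set of the other cells, at 1674 CPM. Per cell, the median over the 20 genes was 5082 CPM in led cells, 1903 in Axin2-alone cells and 1178 in other cells. The kinds overlapped: led cells ranged from 0 to 10970 CPM and Axin2-alone cells from 293 to 4591 CPM. With only the deepest copies and without the defensin cell, the 27 led cells stood at 5494 CPM. Kcnq1 was 902 CPM in led and 172 CPM in Axin2-alone cells, Slc12a2 757 and 191, Lrig1 621 and 166, Cdk6, a kinase of G1 phase, 471 and 107, and Rnf43 421 and 110. Sox9 differed in the other direction, at 90.6 and 132 CPM.

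The same cells also differed in their colonocyte and regional genes. Over the colonocyte list led cells held 2366 CPM, Axin2-alone cells 5439 and other cells 23711. Lypd8, an antibacterial protein of the surface epithelium, stood at 213 CPM in led cells, 2185 in Axin2-alone cells and 4130 in other cells. Summed over the 13 genes of the distal colon list, the Axin2-alone cells held 3785 CPM, the led cells 476 and the other cells 1538. Sycn, Wfdc2 and Hoxb13 made up most of the Axin2-alone sum. Sycn reached 2292, 258 and 922 CPM in that order, and Wfdc2 1049, 109 and 232 CPM. Hoxb13, the most posterior gene of its Hox cluster, reached 286, 31.7 and 71.7 CPM. Over all members the list was split. Of 9 ranked genes, 3 were called higher than in other cells and 4 lower (Slc37a2, Atp12a, Slco2a1 and Fxyd4). A single member, of the Axin2-alone kind, held 671 of the 1268 Sycn UMI, so the Sycn level of that kind rests largely on this cell. Per cell, the median over the distal list was 1356 CPM in Axin2-alone cells, 141 in led cells and 248 in other cells. The highest Axin2-alone cell stood at 13137 CPM. Hao2 of the proximal list was higher in the Axin2-alone cells (641 CPM, against 45.3 in led and 252 in other cells), but it did not stand for that list. Per cell, the median over the proximal list was 1999 CPM in Axin2-alone cells, 808 in led cells and 1906 in other cells. Over all members, 7 of its 11 ranked genes were called lower than in other cells and 2 higher (Adh1 and Slc6a4). The nuclear genes of the mitochondrial respiratory chain took 49913 CPM in the Axin2-alone cells, 8385 in the led cells and 30456 in other cells, and ribosomal protein genes 123181, 46713 and 40910 CPM. Mitochondrial genes took 9.88%, 11.5% and 14.1% of UMI. The part of these RNA quality measures in the differences between kinds was not tested.

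**Figure D4:**
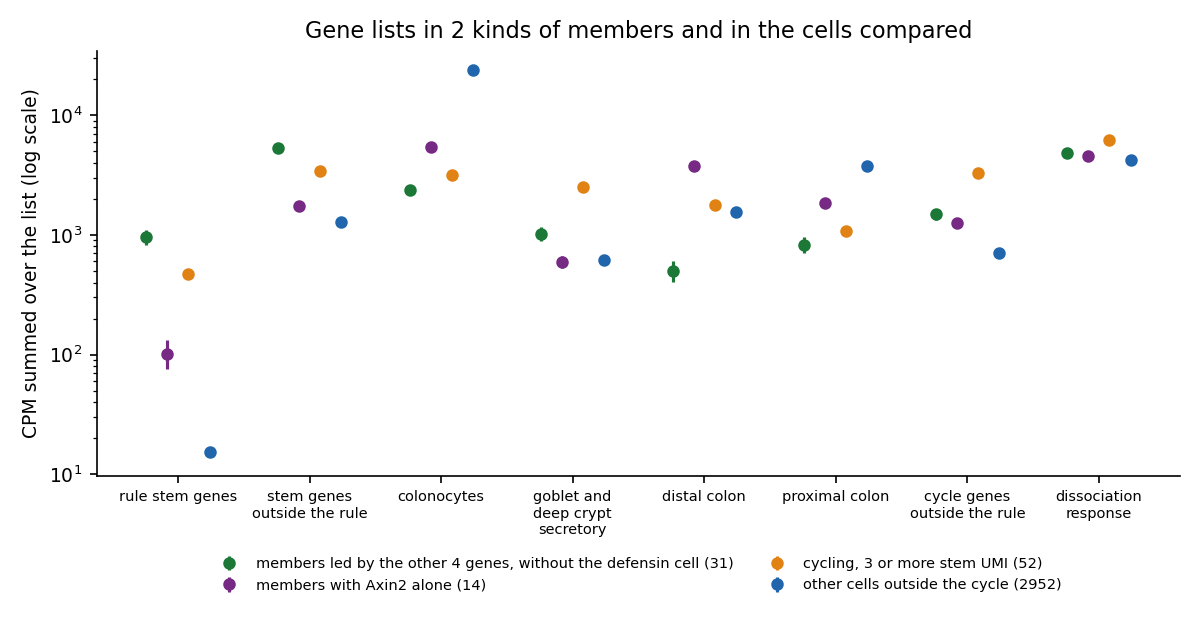
CPM summed over 8 gene lists (log axis, exact Poisson intervals) in the 31 Lgr5- and Smoc2-led members without the defensin cell, the 14 Axin2-alone members, the 52 cycling cells and the 2952 other cells. In the stem genes outside the rule the led cells are highest, then the cycling cells, then the Axin2-alone cells and then the other cells. In the rule stem genes the choice of the cells largely sets the order. The summed distal colon list is highest in the Axin2-alone cells, mostly through Sycn, Wfdc2 and Hoxb13, with much of the Sycn from a single cell.

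Genes that stood out within each kind were then listed after the values were seen: those with at least 20 UMI, found in at least 1 in 3 of its cells and with the largest ratio to the other cells. In the 31 led cells without the defensin cell, Fut9, a fucosyltransferase that makes the Lewis X sugar, stood at 573 CPM against 13.5 (42.6-fold, 34.4 to 52.4). It was found in 13 of the 31 cells, and it stood at 337 CPM in the cycling cells. Clca3b and Clca3a2, of the calcium-activated chloride channel regulator family, stood at 449 against 22.4 CPM and 158 against 3.48 CPM. Clca3b was found in 21 of the cells, Dach1, a transcription cofactor, in 20 (13.7-fold, 10.5 to 17.7), and Tiam1, an activator of Rac, in 18 (18.3-fold, 13.2 to 24.9). In the 14 Axin2-alone cells the list held Hopx, a homeodomain protein (6.49-fold, 4.71 to 8.76, in 8 cells), Kcne3, a subunit that pairs with Kcnq1 (5.27-fold, 4.10 to 6.69, in all 14), Sox9 (5.11-fold, 3.90 to 6.59, in 12) and Cela1, an elastase (4.80-fold, 4.27 to 5.37, in 13). The cycling cells held 152 CPM of Hopx against 97.4 in the Axin2-alone cells, 156 against 150 of Kcne3, 137 against 132 of Sox9 and 270 against 651 of Cela1. Among the genes of the led cells, cycling cells held 376 CPM of Clca3b, 60.8 of Clca3a2, 267 of Dach1 (315 in led cells) and 134 of Tiam1 (224 in led cells). Olfm4, a stem cell marker of the small intestine, had 37 UMI in 13 members, and 10 of these also held UMI of Cps1.

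Against the 52 cycling cells with 3 or more stem UMI the members differed by fewer genes. No cell set held 20 cells of both groups, so the limit was lowered, after this was seen, to 10 cells, which antibiotic sets 1, 2 and 3 met. Of 3823 genes ranked, 37 (0.968%) were called higher and 119 (3.11%) lower in members, with a median log2 ratio of -0.06. Leaving mitochondrial genes, Gm42418, AY036118 and Lars2 out of the totals gave 61 and 94 calls. Of 34 cycle genes outside the rule, 16 were ranked and 12 were called lower, with a median log2 ratio of -1.81: the rule separates these groups by the cycle. The largest lower calls included Kif11, a mitotic motor, with 1 UMI in members (99.3-fold, 17.5 to 3954), and Hist1h1b, a histone of S phase (48.1-fold, 16.2 to 236). Kif15, Hist1h2ae, Prc1, Hist1h2ap, Ect2, Knl1 and Pclaf had 2 to 12 UMI in members. Hmgb2 was 5.51-fold lower (4.44 to 6.90) and Stmn1 5.51-fold (4.23 to 7.29). The G1 cyclin genes Ccnd1, Ccnd2 and Ccnd3 were not called, at 67.6, 421 and 57.9 CPM in members and 94.8, 302 and 39.4 CPM in cycling cells.

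Stem genes summed lower in the members than in the cycling cells, and the direction depended on which members were summed. Over the 20 stem genes outside the rule members stood at 2741 CPM (2636 to 2849) and cycling cells at 3399 (3291 to 3508), and of 16 ranked genes none was called higher and 1, Cdca7, lower. By cell set the members held 2690, 2118 and 2816 CPM and the cycling cells 4547, 2972 and 3096 CPM, with members below in all 3. The log2 ratio was -0.31 (-0.38 to -0.24). It was -0.10 without the 3 members with the most UMI, 0.055 among cells with no shared barcode, and 0.63 (0.53 to 0.72) for the Lgr5- and Smoc2-led members alone. The led members are not a like-for-like match to the cycling cells. The cycling cells could pass on Axin2 alone and were deeper, with a median of 16322 UMI against 6311 in led members. Among the led members, 4 were shallower copies of cells in the cycling group. Of the 22 colonocyte genes 13 were ranked and 4 were called higher in members: Guca2a, a guanylate cyclase ligand (4.78-fold, 4.01 to 5.72), Lypd8 (2.61-fold, 2.41 to 2.84), Cyp2c55 (3.38-fold, 2.53 to 4.55) and Cdhr5 (2.63-fold, 1.93 to 3.61). Without the member that held most Guca2a UMI, 3 of these calls were lost: Guca2a stood at 1.5-fold (1.21 to 1.86), Lypd8 at 1.72-fold (1.58 to 1.88) and Cdhr5 at 1.63-fold (1.15 to 2.30), while Cyp2c55 was still called at 2.66-fold (1.97 to 3.63). Phgr1 and Selenop, also called higher, lost the call without that member, at 1.62-fold (1.45 to 1.82) and 1.54-fold (0.923 to 2.57). In the led members Lypd8, Cdhr5, Phgr1 and Selenop were below the cycling cells, at log2 ratios of -1.84, -0.15, -1.33 and -2.33. The water channel Aqp4 and Smpdl3a, called higher in all members, were below them in the led members, at -0.77 and -0.41, and in members with under 2 UMI over each cycle list, at -0.62 and -0.75. Il18, a cytokine gene, was 3.46-fold higher (2.45 to 4.97). Defa24, Defa17 and Defa30 were called higher on the UMI of the defensin cell.

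The germ-free members were 6 cells with 29084 UMI, and no gene could be called, since no germ-free set had 20 members. The 6 cells held 3 or 4 stem UMI each, summing to 8 Lgr5, 8 Smoc2 and 3 Axin2 UMI, and 4 of them were Lgr5- and Smoc2-led. Over the 20 stem genes outside the rule they stood at 4986 CPM (4207 to 5866) and the 52 antibiotic members at 2669 CPM (2563 to 2777), a ratio of 1.87 (1.57 to 2.21). The single cells ranged from 2540 to 9240 CPM in germ-free members and the antibiotic members had a median UMI count of 10832 against 3133. Among led members alone the log2 ratio had an interval of -0.31 to 0.30 around a value near 0, so the difference over all members was not seen within that kind. Sox4, a transcription factor, had 22 UMI in germ-free members, 21 of them in 1 cell, and 49 in antibiotic members. Colonocyte genes stood at 1822 CPM in germ-free and 6660 CPM in antibiotic members (ratio 0.274, 0.205 to 0.358). Among led members they stood at 1730 CPM and 2426 CPM, and the interval of that ratio (0.713, 0.485 to 1.02) includes equal levels. The other cells outside the cycle differed in the same direction. Their colonocyte genes stood at 15650 and 15570 CPM in the germ-free sets and 24314 to 24568 CPM in the antibiotic sets. Their stem genes outside the rule stood at 1674 and 1394 CPM against 1202 to 1332 CPM. Mitochondrial genes took 17.5% of UMI in germ-free and 10.3% in antibiotic members. In the other cells they took 17.7% and 20.3% in the germ-free sets and 12.8% to 14.4% in the antibiotic sets. The part of mitochondrial genes in these differences was not tested.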

How the data were processed

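The authors deposited natural log values for 32285 genes and 4183 cells. Exponentiated minus 1, they sum to 10000 per cell, and division by a cell's smallest nonzero value gave whole numbers, within 0.01, for 100% of 9481333 nonzero values, which served as UMI. The submitters' processing notes list Cell Ranger 7.0.0, kallisto, bustools and mm10 but give no roles; cell filters and strandedness were not given in the sources used here. Of 13 libraries 5 hold cDNA; the 8 of sample barcodes were not used. Cells were mapped to conditions by name, and no doublets were called. Members and gene lists were chosen with earlier results of these data known. Named are the rule's genes, the 12 called genes of largest ratio per direction and comparison (without ribosomal protein, mitochondrial, Xist, Y-linked, Gm and Rik genes), and up to 4 genes of highest CPM per list. Others were chosen after their values were seen. Python 3.11.15, NumPy 2.4.6, pandas 2.3.3 and SciPy 1.17.1 were used; the rule and the calls were tested on simulated data.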

Additional observations from a re-analysis of the deposited data

How the results depend on the processing

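Over the 20 stem genes outside the rule, the log2 ratio of members to other cells was 1.11 and stayed above 0 in all settings run. It was 1.63 with 5 or more stem UMI, 1.34 with under 2 UMI over each cycle list, 0.99 with totals without mitochondrial genes, Gm42418, AY036118 and Lars2, 1.40 as means per cell, 0.83 with median-of-ratios factors, 1.27 after thinning to 3000 UMI, 1.32 without the 3 members of most UMI, 1.17 against cells with no stem UMI, 1.43 without shared barcodes, 2.04 for Lgr5- and Smoc2-led members, and 0.998 to 1.18 with each cell set left out in turn. Genes called higher numbered 411 (median-of-ratios), 481 (pseudocount of 10 CPM), 2285 (no filter) and 1480 (led), against 897; genes called lower 718 (thinned), 1089 (no filter) and 1109 (led), against 443. Leaving out each set in turn gave 874 to 962 higher and 392 to 446 lower; without antibiotic set 3, with 5 or more stem UMI or with under 2 cycle UMI no set had enough cells for calls. Itln1 turned to -0.31 without the defensin cell and lay between -0.16 (without antibiotic set 2) and 5.72 with sets left out.

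Against cycling cells the stem ratio of -0.31 became 0.088 (5 or more stem UMI), 0.10 (under 2 cycle UMI), -0.19 (no mitochondrial genes), -0.043 (means per cell), -0.10 (without 3 members), 0.055 (no shared barcode) and 0.63 (led), and -0.43 to -0.17 with sets left out. Calls higher were 61 (no mitochondrial genes), 23 (means per cell), 1 (thinned), 287 (no filter), 22 (without 3 members), 56 (no shared barcode) and 72 (led), against 37; calls lower 365 (under 2 cycle UMI), 9 (thinned), 848 (no filter), 250 (no shared barcode) and 482 (led), against 119. The genes ranked differed: 3823 as reported, 353 thinned, 15509 with no filter, 2271 with no shared barcode and 2651 for led members. With sets left out, calls higher were 36 to 45 and calls lower 79 to 127. With under 2 cycle UMI, Aqp4 and Smpdl3a turned to -0.62 and -0.75; in led members Aqp4, Cdhr5, Lypd8, Phgr1, Selenop and Smpdl3a turned to -0.77, -0.15, -1.84, -1.33, -2.33 and -0.41.

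The germ-free to antibiotic stem ratio of 0.90 became 0.39 (under 2 cycle UMI), 0.50 (means per cell), 0.35 (thinned), 0.61 (no shared barcode), -0.00046 (led) and 0.65 to 1.02 with sets left out. Members numbered 140 with 2 or more stem UMI, 21 with 5 or more, and 22 and 19 after thinning to 3000 and 5000 UMI, against 58. After thinning to 3000 UMI, Lgr5 and Smoc2 in cells chosen without them had log2 ratios of 5.17 and 5.28, against 3.44 and 3.01. These rest on 10 Lgr5 UMI in 9 chosen cells and 15 Smoc2 UMI in 10 chosen cells. A limit of 3 UMI in 3000 also asks for a higher share than in deeper cells, so the ratios are not like for like. The 48 largest calls of the comparisons with other cells and with cycling cells gave 912 values under other settings. The remaining named genes were not counted here, and Lgr5, Smoc2 and Axin2, by which cells were chosen, are among the 48. Of the 912 values, 768 kept their call, 134 lost it with the same direction and 10 turned direction. Of the 134, 96 were still at least 2-fold and 38 were under it. The settings on shared barcodes, the defensin cell, the member with the highest colonocyte share, the 3-set calls and the led members were added after the data were seen. The cause of these changes was not tested. No paired analysis was possible because each condition is 1 pool and no test was run. Of 58 members, 23 rest on exactly 3 stem UMI.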

Other observations

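Other lists described the members further. Of 21 ranked genes of nicotinic acid, NAD and PPAR, none was called higher than in the other cells outside the cycle and 5 were called lower, among them Pparg (103 CPM against 413) and Pdk4 (19.3 against 112). Of 13 ranked interferon and MHC genes, 5 were lower, among them H2-K1 (184 against 390 CPM) and Irf7 (32.2 against 90.4), and none was higher. Of 12 ranked Hox and other regional regulators 6 were called higher (Hoxa3, Hoxa7, Hoxa9, Hoxa10, Hoxa13 and Hoxb13), 5 of them with sets 1, 2 and 3 required to agree. Of 14 genes of the dissociation response, all were ranked and 1 was called, Nr4a1 (161 against 65.0 CPM). Over all ranked genes, 12.9% were called higher and 6.35% lower.

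Cell cycle genes outside the rule were above the other cells: 9 of 14 ranked were called higher, led in CPM by Ccnd2 (421 against 127 CPM), and Cdkn1a, a cycle inhibitor, was called lower (79.3 against 195 CPM).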
